A study of Mus musculus with 170 samples.

Results

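The lungs of mice examined 24 h after they received particles from smoldering red oak were compared with the lungs of mice examined 24 h after saline. The comparison holds 6 red oak smolder lungs and 6 saline lungs of the 170 libraries measured, chosen by their labels of tissue, time and treatment. The animals were female mice of the outbred CD-1 stock, and each lung library came from 1 animal. The exposed mice received 50 µL of saline carrying particulate matter at 2 mg/mL by oropharyngeal aspiration, in which a liquid placed at the back of the throat is breathed in. The control mice received saline without smoke particles. The same study covered 10 smokes, from 5 fuels each burned in a smoldering and a flaming phase, along with LPS (bacterial endotoxin) at 4 h and 24 h. An aspirated bolus of condensate is a model of inhaled smoke that bypasses the nose and delivers the dose at once.

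Alveolar macrophages live on the airspace surface and take up inhaled particles. They recognise uncoated particles and bacteria through scavenger receptors, membrane proteins that bind many kinds of charged ligands, and Marco (macrophage receptor with collagenous structure) is the scavenger receptor best known for binding inhaled dust in mouse lung. Smoke condensates also hold polycyclic aromatic hydrocarbons and quinones, which in many tissues activate the aryl hydrocarbon receptor, with Cyp1a1 as its classic target, and NRF2, with Nqo1 and Hmox1 among its targets. Because Marco was the gene on which the comparison turned, the 250 bases before its transcription start are shown, from the RefSeq promoter table of build GRCm38.p6, chr1:120505025-120505274, minus strand, written 5′ to 3′ along the gene.
Marco: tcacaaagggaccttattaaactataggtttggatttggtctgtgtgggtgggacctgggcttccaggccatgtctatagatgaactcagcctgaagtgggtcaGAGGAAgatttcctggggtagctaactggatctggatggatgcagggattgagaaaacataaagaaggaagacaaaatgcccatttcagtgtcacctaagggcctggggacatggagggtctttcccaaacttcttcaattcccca
The capitals mark GAGGAA, the core letters bound by PU.1, the transcription factor that directs macrophage development, which begins 146 bases before the start. This motif was chosen after the values were seen, and 28.3% of the 32851 promoter windows of 300 bases hold it on either strand. The core of the aryl hydrocarbon receptor element, GCGTG, and the core of the antioxidant response element bound by NRF2, TGACNNNGC, had 0 matches in the Marco window on either strand. Of all windows 32.4% hold the first and 12.4% the second, the motifs do not overlap in the Marco window, and no binding was measured here.

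Total counts were 6.54 to 7.24 M in the red oak smolder libraries and 5.63 to 6.67 M in the saline libraries, a difference beyond the spread between libraries (two-sided exact permutation test, p = 0.00433, 6 against 6). Genes with at least 1 count numbered 14827 to 15246 in the red oak smolder libraries and 13196 to 15400 in the saline libraries (exact permutation p = 0.312), with saline replicate 2 the lowest. Genes with at least 10 counts did differ, averaging 12577 in the red oak smolder libraries and 12059.5 in the saline libraries (exact permutation p = 0.00649). In each group 1 library was on plate 1 and 5 were on plate 2. Each library was also set against the mean log profile of the other 5 libraries of its own group and of the 6 libraries of the other group. Red oak smolder replicates 5 and 6 correlated better with the saline mean (r = 0.979 and 0.985) than with their own group's (0.962 and 0.963). Saline replicates 1 and 6 correlated better with the red oak smolder mean (0.976 and 0.984) than with their own (0.947 and 0.938). The other 8 libraries were closer to their own group. Red oak smolder replicate 1 stood apart from its group in 7 of the sets of values tested for outlying libraries. Without it Marco was higher by 4.01 on the log2 scale (edgeR, adjusted p = 0.183). The alveolar type 2 markers, 15 genes such as surfactant proteins, summed to 8188 to 16238 CPM in the red oak smolder lungs against 7135 to 17598 CPM in the saline lungs, so all 12 libraries carried the transcripts of lung tissue.

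Of 14458 genes tested, 1 was called at an adjusted p under 0.05 and 0 were called lower. The called gene was Marco, higher after red oak smolder, and it made up 0.00692% of the genes tested. Marco stood at 18.3, 13.5, 25.7, 8.94, 4.81 and 0.425 CPM in the red oak smolder lungs, against 1.18, 0, 0.164, 1.74, 0.448 and 0.1505 CPM in the saline lungs. It exceeded every saline lung in 5 of the 6 red oak smolder lungs, and replicate 6 fell within the saline range. The 6 exposed values span a wide range, and 1 saline lung had 0 counts. Marco averaged 11.97 ± 9.24 CPM in the red oak smolder lungs and 0.614 ± 0.694 CPM in the saline lungs (SD, n = 6 each), which is 18.5-fold in the fit or 4.21 ± 0.86 on the log2 scale (edgeR quasi-likelihood test, adjusted p = 0.0453). Behind these values are 525 counts in the red oak smolder lungs and 23 in the saline lungs, from 1 probe. An exact permutation test on log2(CPM + 1), which uses only these 12 libraries, gave p = 0.00866, and on the 5 against 5 libraries of plate 2 p = 0.0238. These p-values are unadjusted, and Marco was 1 of 9 markers so tested. The markers were chosen with earlier results of these data known, so these tests are not separate evidence for Marco. The adjusted p sat near the threshold, and leaving out red oak smolder replicate 1, 2 or 3 or saline replicate 1, 2, 3, 5 or 6 took it above, to between 0.0821 and 0.335, with a log2 change of 3.83 to 4.79 over all 12 omissions. Fits to the 24 h lungs alone (adjusted p = 0.304), to the 12 libraries alone (0.272) or to plate 2 alone (0.885) did not call it, whereas DESeq2 did (0.000286). With 1861 genes at an unadjusted p under 0.05, 12.9% of those tested, 607 were higher (4.2%) and 1254 lower (8.67%).

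Marco varied between treatments and times across the study, and the 24 h saline lungs were the lowest of the 24 lung groups. The highest mean was 22.6 ± 12.4 CPM at 4 h after LPS (n = 4), followed by 13.7 ± 10.8 CPM at 24 h after LPS (n = 4) and 11.97 ± 9.24 CPM at 24 h after red oak smolder (n = 6). At 24 h red oak smolder and LPS did not differ in Marco beyond their spread, at -0.19 ± 0.79 on the log2 scale (edgeR, adjusted p = 0.883). The other 9 smokes at 24 h had means of 1.04 CPM after peat flame to 4.30 CPM after eucalyptus smolder, and 0.614 CPM was the mean after saline. Against the same saline lungs Marco was thus higher in value after each of the 9, though none passed. The log2 changes ran from 0.83 ± 0.88 (peat flame) to 2.78 ± 0.85 (eucalyptus smolder). LPS at 24 h did pass against saline, at 4.39 ± 0.91 (edgeR, adjusted p = 0.000111), with 12.1% of all genes called. Against the mean of those 9 smokes Marco was higher by 2.12 ± 0.45 (edgeR, adjusted p = 0.0164), 1 of 7 genes called, 0.0484% of those tested. That contrast gives no weight to the saline lungs, but it holds the same 6 red oak smolder lungs and comes from the same fit. Taken smoke by smoke, the difference was 1.43 to 3.38 in favour of red oak smolder and passed against peat flame alone (3.38 ± 0.80, adjusted p = 0.0151), a comparison in which 18.5% of all genes were called. Peat flame replicates 1, 2 and 3 at 24 h had 0 counts of Marco and few detected genes, 13746, 13159 and 12145. Replicates 4 to 6 had 14859 to 15421 detected genes and 0.667 to 3.67 CPM of Marco. The part of detected genes in this comparison was not tested. Against red oak flame, the same wood burning with a flame, Marco stood at 11.97 ± 9.24 CPM after smolder and 2.44 ± 2.53 CPM after flame (2.18 ± 0.75, edgeR adjusted p = 0.062). Red oak flame replicate 6 had 0 counts of Marco and only 9886 detected genes, and the other flame lungs had 0.669 to 6.49 CPM. Without the lung libraries of under 13000 detected genes, 0 genes were called in this comparison.

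**Figure D1:**
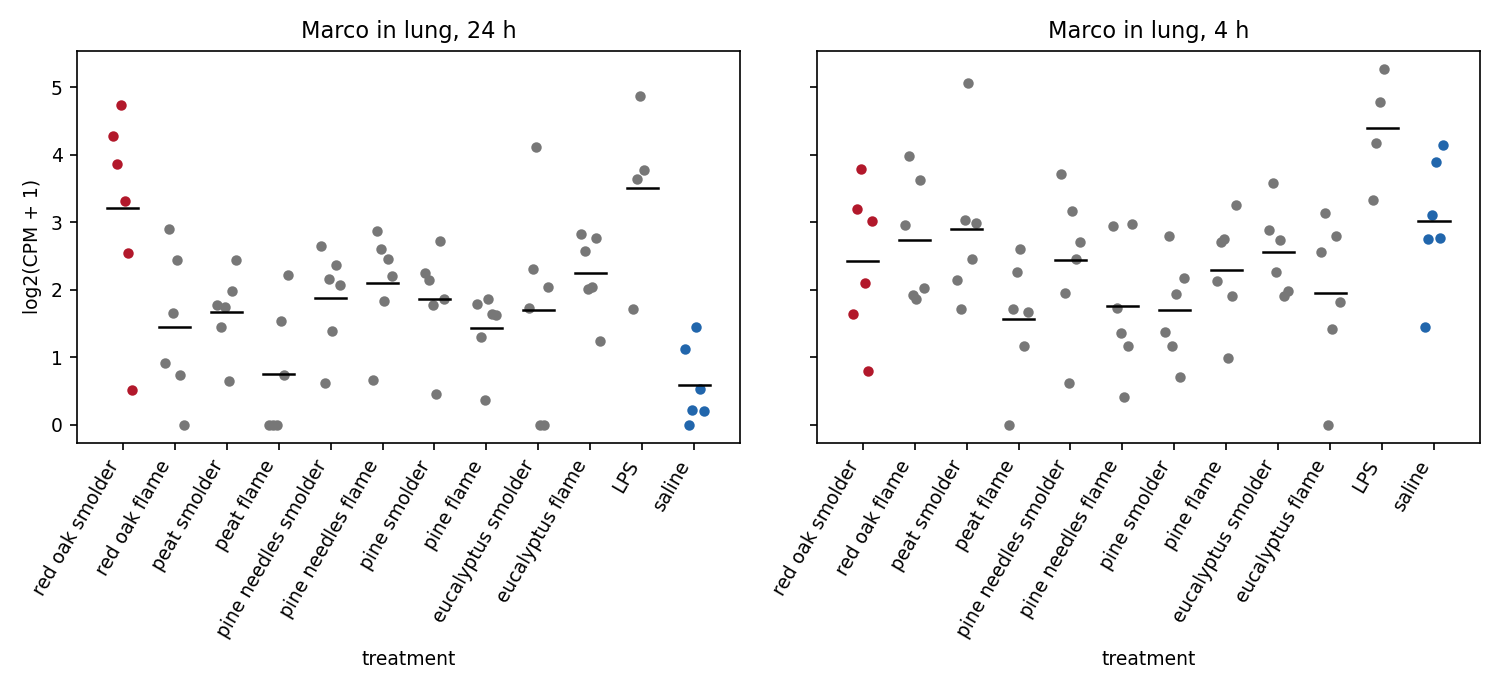
Marco in every lung library, as log2(CPM + 1), at 24 h (left panel) and 4 h (right panel); each point is 1 animal, the bar is the group mean, red is red oak smolder, blue is saline and grey the other treatments. At 24 h 5 of 6 red oak smolder lungs lie above all 6 saline lungs, while at 4 h the same groups overlap.

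At 4 h Marco stood at 2.11, 8.16, 12.9, 3.30, 0.736 and 7.11 CPM in the red oak smolder lungs, against 1.72, 5.77, 7.65, 13.8, 5.83 and 16.8 CPM in the saline lungs, and the groups overlapped. The log2 change at 4 h was -0.59 ± 0.71 (edgeR, adjusted p = 1). All red oak smolder and saline lungs at 4 h were on plate 1, which held only 1 lung of each group at 24 h. Time and plate can thus hardly be told apart in these groups, although the fit has a term for plate. Saline lungs themselves differed in level between the times, at 0.614 ± 0.694 CPM at 24 h and 8.60 ± 5.63 CPM at 4 h, a log2 difference of -3.77 ± 0.91 that did not pass (adjusted p = 0.134). The change at 24 h minus the change at 4 h was 4.80 ± 1.11 for Marco, and it did not pass either (adjusted p = 0.267). In that test of the difference between times 0% of the 14458 genes were called, 568 (3.93%) had an unadjusted p under 0.05, and DESeq2 called 2. In the hearts Marco had 0 counts in all 6 red oak smolder and all 6 saline animals.

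Other genes of alveolar macrophages leaned the same way without passing. Of 20 marker genes, Marco included, 17 were tested. A log2 change above 0 was found for 16 of the 17, and the median was 0.76, beside 51.5% and 0.02 over all genes tested. An unadjusted p under 0.05 with a higher level was reached by 5 of the 17, Marco among them, beside 4.2% of all genes. Only 1 was called, Marco itself. Mrc1, the mannose receptor of macrophages, stood at 11.99, 6.57, 8.22, 2.98, 3.44 and 0.991 CPM in the red oak smolder lungs, against 1.33, 1.75, 2.13, 1.91, 1.35 and 2.26 CPM in the saline lungs. Its log2 change was 1.62 ± 0.57 (edgeR, adjusted p = 0.361), with replicates 1 to 5 above every saline lung and replicate 6 below every one. Itgax, the integrin CD11c that marks alveolar macrophages and dendritic cells, was at 99.96, 77.5, 77.2, 63.2, 32.8 and 46.5 CPM in the red oak smolder lungs, against 26.4, 28.5, 29.8, 32.5, 39.8 and 63.1 CPM in the saline lungs. Here 4 of the 6 red oak smolder lungs lay above all saline lungs, and the log2 change was 0.87 ± 0.38. Chil3, the secreted chitinase-like protein Ym1, had medians of 1291 against 618 CPM in red oak smolder and saline lungs and a log2 change of 1.19 ± 0.56. Siglecf, the lectin shared by mouse alveolar macrophages and eosinophils, had 4.81 to 57.3 CPM, median 21.1, in the red oak smolder lungs against 2.39 to 24.4 CPM, median 6.35, in the saline lungs. For Siglecf the log2 change was 1.32 ± 0.73. The arginine transporter Slc7a2 differed by 0.51 ± 0.24. The lowest log2 change of the list was -0.61 for Fabp4, a fatty acid carrier, and the carbonic anhydrase Car4, also made by endothelium, was at 0.01, with a sign that differed between processing settings.

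The summed level of the list without Marco was 5733, 4341, 3985, 2500.1, 2186 and 3939 CPM in the red oak smolder lungs, against 2417, 3256, 2265, 3082, 1734 and 3040.5 CPM in the saline lungs. Replicates 1, 2, 3 and 6 of the red oak smolder group were above every saline lung in this sum, and replicates 4 and 5 were among them. Replicate 6, which had almost no Marco, thus had a high sum, but the macrophage genes given above by library or range were not high in it. In replicate 6 Mrc1 was at 0.991 CPM, below every saline lung. Itgax (46.5 CPM), Siglecf, Slc7a2 and Chil3 were within the saline range in that lung. Its sum came mainly from other members of the list, so the sum does not stand for these genes. In bulk tissue a larger number of cells of a type and more RNA per cell cannot be told apart. Ear6, Ear10 and Krt79 were not tested, with at most 5 counts in a group. Across the 6 red oak smolder lungs the log2 sum and Marco, as log2(CPM + 1), had a Pearson r of 0.30 (permutation p = 0.558) and a Spearman rho of 0.66 (permutation p = 0.175). Without the 2 lungs farthest from the median sum r was 0.41.

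Markers of other tissues also differed in value. Of 13 tested genes of cardiac muscle 12 had a log2 change below 0 and the median was -1.41. Of these, 10 had an unadjusted p under 0.05 with a lower level, beside 8.67% of all genes, and 0 were called. The summed level of these 13 genes was 106.6, 138.4, 153, 384, 437 and 622 CPM in the red oak smolder lungs, against 916, 1407, 523, 1198, 1082 and 399 CPM in the saline lungs. The first 3 red oak smolder lungs were the lowest of all 12, and the saline lungs other than replicates 3 and 6 were the highest. Myh6, the myosin heavy chain of the mouse heart, was at 5.06, 6.44, 10.8, 18.3, 34.4 and 42.2 CPM in the red oak smolder lungs, against 55.2, 127.8, 50.3, 121.4, 64.3 and 30.1 CPM in the saline lungs (log2 change -1.98 ± 0.64, adjusted p = 0.361 in edgeR). Nppa, the atrial natriuretic peptide, was at 0, 0.131, 0, 0, 0.412 and 0.283 CPM in the red oak smolder lungs, against 1.03, 3.75, 1.802, 3.31, 13.6 and 1.505 CPM in the saline lungs, with no overlap between the groups and a log2 change of -4.72 ± 1.33 (adjusted p = 0.361) that rests on levels under 1 CPM after exposure. Myl2, the ventricular myosin light chain, went the other way in the list (1.30). For skeletal muscle 6 of 8 genes were below 0 with a median of -0.36, where 51.5% of all genes were above 0. Of the 8, 3 (37.5%) were lower at an unadjusted p under 0.05, beside 8.67% of all genes. The sums were 43.5 to 97.7 CPM in the red oak smolder lungs against 74.2 to 412 CPM in the saline lungs. Ckm, the muscle creatine kinase, ranged over 3.32 to 51.6 CPM, median 19.1, in the red oak smolder lungs against 27.8 to 369.7 CPM, median 91.4, in the saline lungs. The part of these muscle transcripts in the result for Marco was not tested.

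**Figure D2:**
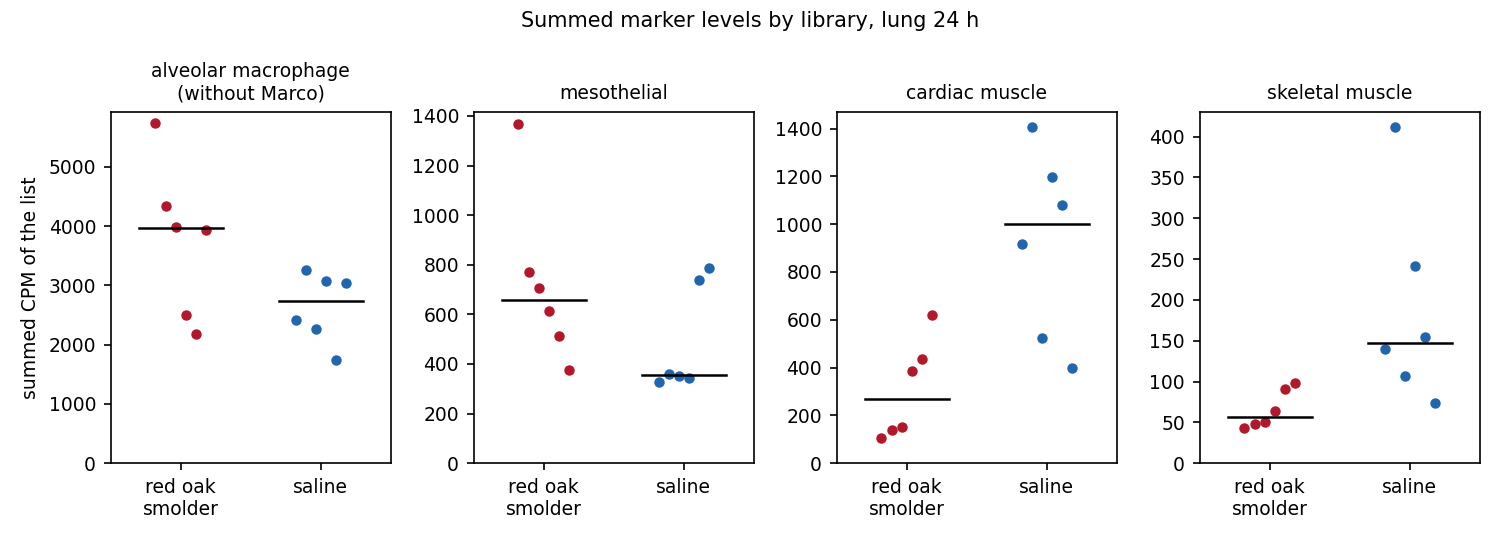
Summed CPM of the alveolar macrophage list without Marco and of the mesothelial, cardiac muscle and skeletal muscle lists in each lung library at 24 h; points are the 6 red oak smolder (red) and 6 saline (blue) animals and bars are medians. The cardiac sum spans 106.6 to 622 CPM after red oak smolder and 399 to 1407 CPM after saline.

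Within the red oak smolder group Marco ran against the cardiac sum. Pearson's r across the 6 lungs was -0.87 (permutation p = 0.0167, 0.0667 adjusted over 4 relations) and Spearman's rho -0.83 (permutation p = 0.0583, adjusted 0.233), and r was -0.85 without the 2 lungs farthest from the median sum. In the 6 saline lungs r was 0.35 (permutation p = 0.55) and rho 0.09 (permutation p = 0.919), with r at -0.56 without the 2 farthest. The relation of Marco to the macrophage sum in saline lungs had r = -0.017 (permutation p = 0.936) and rho = -0.26 (permutation p = 0.658), and r = 0.27 without the 2 farthest. These 4 relations were chosen after the values were seen, none passed after adjustment, and both measures come from the same library.

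Mesothelial genes, expressed by the lining of the lung surface, had higher values after exposure in 7 of 8 cases, with a median log2 change of 1.04, 4 higher at an unadjusted p under 0.05 (4.2% of all genes) and 0 calls. Gpm6a, a membrane glycoprotein of that lining, was at 207, 112.2, 73.2, 83.4, 41.6 and 23.7 CPM in the red oak smolder lungs, against 35.9, 27.3, 23.1, 12.4, 61.6 and 81.6 CPM in the saline lungs (log2 change 1.14 ± 0.39, adjusted p = 0.361 in edgeR). Saline replicates 5 and 6 were the highest of their group for Gpm6a and for Wt1, a transcription factor of mesothelium at 2.83 to 41.02 CPM, median 14.4, in the red oak smolder lungs against 1.91 to 17.9 CPM, median 4.25, in the saline lungs. Lrrn4, a further marker of that lining, had 1.12 ± 0.53. Of 18 tested genes of fibroblasts and smooth muscle 15 were below 0, with a median of -0.51, 6 lower at an unadjusted p under 0.05 (8.67% of all genes) and 0 calls. Col1a1, the main fibrillar collagen chain, ranged over 314 to 2861 CPM, median 953, in the red oak smolder lungs against 731 to 9841 CPM, median 2381, in the saline lungs, and Acta2, the actin of smooth muscle, over 4.04 to 40.4 CPM, median 15.9, in the red oak smolder lungs against 7.52 to 148 CPM, median 43.5, in the saline lungs. Of 8 transcripts encoded in mitochondria 7 were above 0, beside 51.5% of all genes, with a median of 1.13 and a lowest value of -1.34. An unadjusted p under 0.05 with a higher level was reached by 5 (62.5%), beside 4.2% of all genes, and 0 were called. Among them mt-Cytb, a subunit of respiratory complex III, was at 189, 88.9, 92.5, 91.9, 56.1 and 23.1 CPM in the red oak smolder lungs. In the saline lungs mt-Cytb was at 58.8, 4.75, 17.04, 8.35, 32.6 and 68.5 CPM. The sum of the 8 transcripts nevertheless overlapped, at 756 to 1955 CPM in the red oak smolder lungs against 793 to 2928 CPM in the saline lungs. Saline replicate 2 had the highest sum (2928 CPM) but the lowest mt-Cytb (4.75 CPM), so mt-Cytb does not stand for the sum. The part of these shifts in the other results was not tested.

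Beyond Marco, the genes of smallest p with a higher level that averaged 5 CPM or more in either group had adjusted p of 0.361 and are given as values. Hnmt, which inactivates histamine by methylation, was at 117.4, 90.8, 93.3, 73.1, 70.4 and 47.6 CPM in the red oak smolder lungs, against 45.8, 36.8, 35.7, 34.6, 59.04 and 50.9 CPM in the saline lungs (log2 change 0.91 ± 0.24). Kit, the stem cell factor receptor carried by mast cells and some endothelium, was at 98.2, 120.6, 126.97, 178, 71.7 and 82.6 CPM in the red oak smolder lungs, against 77.3, 40.8, 60.4, 48.02, 60.1 and 81.1 CPM in the saline lungs. For Kit the log2 change was 0.89 ± 0.26. For both genes 5 of 6 red oak smolder lungs exceeded every saline lung, and the exception was replicate 6 for Hnmt and replicate 5 for Kit, which lay within the saline range. Chka, the first enzyme of phosphatidylcholine synthesis, ranged over 34.8 to 112.1 CPM, median 73.1, in the red oak smolder lungs against 13.3 to 65.2 CPM, median 32.5, in the saline lungs. For Chka the log2 change was 1.07 ± 0.31. Cyp51, a demethylase of cholesterol synthesis, was at 17.8, 13.9, 13.7, 19.6, 10.9 and 12.04 CPM in the red oak smolder lungs, against 5.89, 1.75, 6.22, 8.35, 6.58 and 11.9 CPM in the saline lungs, with 5 of 6 red oak smolder lungs above every saline lung. For Cyp51 the log2 change was 1.10 ± 0.32. Pygl, the liver-type glycogen phosphorylase, ranged over 110.1 to 399 CPM, median 213, in the red oak smolder lungs against 54.5 to 157 CPM, median 98.4, in the saline lungs. For Pygl the log2 change was 1.16 ± 0.34. Angptl7, a secreted angiopoietin-like protein, ranged over 1.56 to 27.01 CPM, median 11.5, in the red oak smolder lungs against 0.250 to 5.12 CPM, median 2.35, in the saline lungs and had, after Marco, the largest change among these 10 genes (2.29 ± 0.68). The remaining 3 were Prex2, an activator of the GTPase Rac (1.23 ± 0.36), Tbl1x, a subunit of a nuclear corepressor complex (0.95 ± 0.28), and the membrane fusion protein Stx19 (0.80 ± 0.24).

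**Figure D3:**
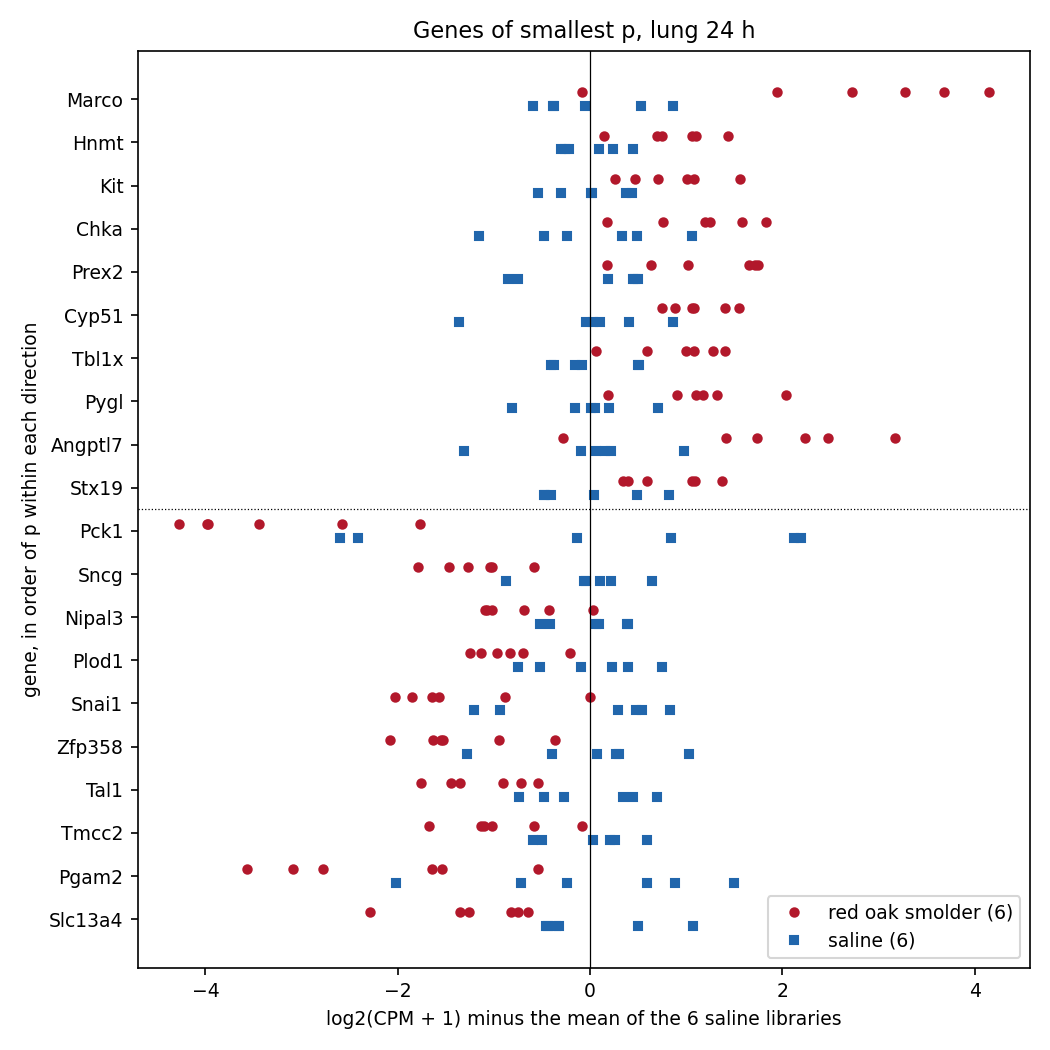
The 10 genes of smallest p that were higher (top) and lower (bottom) after red oak smolder among genes averaging 5 CPM or more in either group, as log2(CPM + 1) minus the saline mean of the same gene; red circles are the 6 red oak smolder lungs and blue squares the 6 saline lungs at 24 h. Slc13a4 alone among these 20 genes has no overlap between the groups, and Marco is the gene that passed the test.

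With the same limit of 5 CPM the lower genes were led by Pck1, the cytosolic enzyme that starts gluconeogenesis and glyceroneogenesis and is high in liver, kidney and fat. It was at 0.144, 1.05, 0.404, 2.71, 0.412 and 5.52 CPM in the red oak smolder lungs, against 2.65, 95.8, 19.2, 38.8, 100.9 and 3.16 CPM in the saline lungs. Saline values fell into a low pair, replicates 1 and 6, and 4 higher lungs, and the red oak smolder lungs overlapped the low pair. The log2 change was -4.59 ± 1.08 (edgeR, adjusted p = 0.236), while DESeq2 called it as 1 of its 2 genes. Snai1, a transcription factor of epithelial to mesenchymal change, was at 20.7, 18.1, 23.99, 25.3, 41.5 and 77.2 CPM in the red oak smolder lungs, against 108.3, 112.6, 137.8, 94.6, 32.9 and 39.9 CPM in the saline lungs (-1.33 ± 0.35, adjusted p = 0.361). For Snai1 the overlap involved red oak smolder replicates 5 and 6 and saline replicates 5 and 6. Sncg, the gamma member of the synuclein family, ranged over 2.31 to 6.66 CPM, median 4.19, in the red oak smolder lungs against 5.27 to 17.01 CPM, median 10.8, in the saline lungs. For Sncg the log2 change was -1.40 ± 0.35. Slc13a4, a sodium-coupled sulfate transporter, was at 3.18, 11.2, 7.55, 7.04, 10.6 and 12.04 CPM in the red oak smolder lungs, against 13.8, 42.02, 27.8, 14.1, 15.4 and 15.05 CPM in the saline lungs, with all 6 red oak smolder lungs below all 6 saline lungs (-1.32 ± 0.37, adjusted p = 0.361). Such complete separation below saline occurred for 14 genes, 0.0968% of those tested, and above saline for 18 genes, 0.124%. By chance alone a share of about 0.00216 of genes would separate fully in 1 direction or the other. The number of separated genes is thus near what chance gives. Pgam2, the muscle form of a glycolytic mutase, had -2.36 ± 0.67 and ran with the muscle genes above. The other 5 were Nipal3, a putative magnesium transporter (-0.70 ± 0.18), the collagen-modifying enzyme Plod1 (-0.91 ± 0.24), the zinc finger gene Zfp358 (-1.49 ± 0.40), Tal1, a transcription factor of blood and endothelium (-1.32 ± 0.36), and the membrane protein Tmcc2 (-0.91 ± 0.26).

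In the club and secretory list 15 genes were tested, 9 were below 0 and 6 above, the median was -0.60, and 0 were called. An unadjusted p under 0.05 with a lower level was reached by 5, beside 8.67% of all genes, and the sums overlapped, at 28016 to 50716 CPM in the red oak smolder lungs against 22234 to 51459.9 CPM in the saline lungs. The 4 members of smallest p, described next, were lower in value. Muc5b, the mucin that normally lines the mouse airway, was at 9.10, 48.2, 52.6, 35.1, 55.9 and 36.5 CPM in the red oak smolder lungs, against 100.5, 139.1, 130.7, 116.6, 222 and 74.9 CPM in the saline lungs. All 6 red oak smolder lungs lay below all 6 saline lungs (log2 change -1.70 ± 0.50, edgeR adjusted p = 0.361). Muc5ac, the mucin of goblet cells, had 0.289 to 5.77 CPM, median 2.23, in the red oak smolder lungs against 4.35 to 18.2 CPM, median 6.85, in the saline lungs (-1.66 ± 0.55), and the secreted defence protein Bpifb1 had 3.90 to 35.9 CPM, median 9.87, in the red oak smolder lungs against 28.6 to 237 CPM, median 74.8, in the saline lungs. For Bpifb1 the log2 change was -2.66 ± 0.80. Scgb3a1, a secretoglobin of the larger airways, differed by -1.80 ± 0.68. Scgb1a1, the main product of club cells, was at 0.14 and Cyp2f2, their cytochrome P450, at 0.11, and the sign of both differed between processing settings. How much of the larger airways each lung sample held was not measured.

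None of the tested genes of the aryl hydrocarbon receptor and NRF2 lists passed in the fit across all genes. Cyp1a1 was at 10.98, 7.49, 12.8, 7.85, 0.550 and 6.23 CPM in the red oak smolder lungs, against 8.25, 10.8, 14.4, 4.87, 6.88 and 6.17 CPM in the saline lungs, and the groups overlapped (log2 change -0.16 ± 0.49, adjusted p = 0.871 in edgeR). Cyp1b1, the related enzyme outside liver, had -0.70 ± 0.44. Of 10 genes of the aryl hydrocarbon receptor list 6 were above 0, with a median of 0.23, 2 higher at an unadjusted p under 0.05 (4.2% of all genes) and 0 calls. Nqo1, the quinone reductase, was at 15.2, 5.91, 15.2, 16.4, 10.9 and 9.35 CPM in the red oak smolder lungs, against 6.48, 0, 3.44, 5.05, 7.62 and 6.32 CPM in the saline lungs. It exceeded every saline lung in 5 of 6 red oak smolder lungs, its log2 change was 1.31 ± 0.46 (adjusted p = 0.361 over all genes), and the exact permutation test over the 12 libraries, 1 of 9 such tests, gave p = 0.00866 (0.0238 on the 5 against 5 libraries of plate 2). Hmox1, which degrades heme, had 0.20 ± 0.53, with 1.42 to 7.85 CPM, median 5.92, in the red oak smolder lungs against 2.69 to 5.89 CPM, median 4.45, in the saline lungs. The NRF2 list as a whole had 20 of the 31 tested genes above 0 and a median of 0.11, with 3 members (9.68%) at an unadjusted p under 0.05 in each direction, beside 4.2% of all genes higher and 8.67% lower.

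Markers of acute inflammation were spread widely at 24 h. Cxcl1, a chemokine that attracts neutrophils, had 1.13 to 6.87 CPM, median 3.71, in the red oak smolder lungs against 0 to 5.12 CPM, median 2.02, in the saline lungs (0.75 ± 0.59), and the cytokine Il6 was at most 1.42 CPM in the red oak smolder lungs and at most 1.96 CPM in the saline lungs (0.25 ± 0.83). Saa3, an acute phase protein made in the lung, was at 8.38, 41.6, 9.44, 20.7, 1.24 and 2.41 CPM in the red oak smolder lungs, against 4.71, 1.75, 1.47, 0, 1.35 and 6.17 CPM in the saline lungs. The first 4 red oak smolder lungs were above every saline lung and the others among them (log2 change 2.39 ± 1.03, edgeR adjusted p = 0.374; exact permutation p = 0.0541). S100a8, a subunit of the neutrophil protein calprotectin, had 0.687 to 14.6 CPM, median 3.18, in the red oak smolder lungs against 0 to 4.97 CPM, median 0.798, in the saline lungs. For S100a8 the log2 change was 1.61 ± 0.92 (exact permutation p = 0.0866). The neutrophil list had 13 of the 19 tested genes above 0, beside 51.5% of all genes, and a median of 0.21. It had 0 members at an unadjusted p under 0.05, beside 12.9% of all genes. The neutrophil sum was 266 to 805 CPM in the red oak smolder lungs against 362 to 543 CPM in the saline lungs. Lcn2, an iron-binding protein of neutrophils and epithelium, had 1.53 ± 0.83. Complement and acute phase genes had 17 of the 23 above 0, a median of 0.36, 6 members higher at an unadjusted p under 0.05 (4.2% of all genes) and 0 calls. C3, the central complement protein, was at 1090.0, 1402, 853, 746, 639 and 462 CPM in the red oak smolder lungs, against 450.2, 365, 438, 439, 708 and 638 CPM in the saline lungs. The log2 changes were 0.77 ± 0.31 for C3 and 1.16 ± 0.47 for the protease precursor C2. Among chemokines and cytokines 20 of the 27 tested genes were above 0, with a median of 0.41, beside 51.5% and 0.02 over all genes tested. An unadjusted p under 0.05 with a higher level was reached by 2 of them (7.41%), beside 4.2% of all genes. The smallest p were those of Il33, an alarm signal of epithelium (1.54 ± 0.73), and Csf2, the growth factor on which alveolar macrophages depend (1.25 ± 0.60). Interferon-stimulated genes had 21 of the 28 above 0 and a median of 0.37, beside 51.5% and 0.02 over all genes tested. Only 1 of them (3.57%) was higher at an unadjusted p under 0.05, beside 4.2% of all genes.

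**Figure D4:**
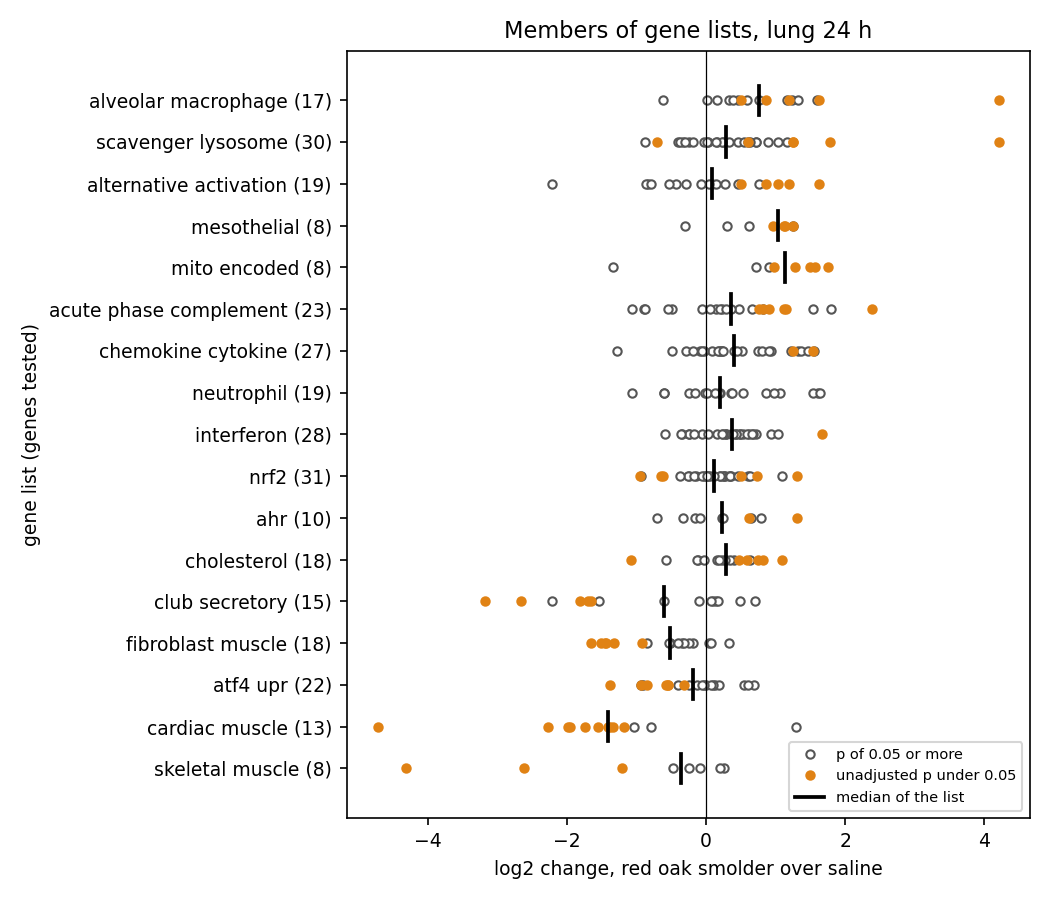
Log2 change, red oak smolder over saline, of each tested member of 17 gene lists in 24 h lung; filled points have an unadjusted p under 0.05, open points do not, and the vertical bar is the list median. The cardiac muscle median lies at -1.41 and the mesothelial median at 1.04, beside 0.02 over all genes tested.

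Lipid and stress pathways gave values in both directions. Of 18 cholesterol genes 13 were above 0, with a median of 0.28, and 5 were higher and 1 lower at an unadjusted p under 0.05, beside 4.2% and 8.67% of all genes. Of 22 genes of the ATF4 and unfolded protein responses 14 were below 0, with a median of -0.19, and 7 were lower at an unadjusted p under 0.05, beside 8.67% of all genes. Ddit3, the stress transcription factor CHOP, was at 14.7, 18.4, 16.7, 13.4, 20.9 and 25.2 CPM in the red oak smolder lungs, against 28.9, 22.3, 33.4, 29.4, 26.2 and 23.5 CPM in the saline lungs, with 5 of 6 red oak smolder lungs below every saline lung (-0.58 ± 0.20). Atf5, a related factor, had 95.8 to 587 CPM, median 167, in the red oak smolder lungs against 234 to 1426 CPM, median 548, in the saline lungs. For Atf5 the log2 change was -1.38 ± 0.54. In the scavenger receptor and lysosome list, Marco included, 21 of the 30 tested genes were above 0 with a median of 0.28. Over all genes tested these were 51.5% and 0.02. Olr1, the receptor for oxidised lipoprotein, followed Marco at 15.6, 10.4, 8.09, 4.87, 1.79 and 1.56 CPM in the red oak smolder lungs, against 1.62, 0, 3.28, 2.26, 0.149 and 4.21 CPM in the saline lungs. For Olr1 the log2 change was 1.79 ± 0.62. DESeq2's size factors put the median of all genes at 0.17 in place of 0.02, and the list medians given here kept their sign under them. The ATF4 and unfolded protein median, however, moved from -0.19 to -0.012, with 11 of its 22 genes above 0 in place of 8.

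Against the mean of the other 9 smokes at 24 h, 5 genes (0.0346%) were higher and 2 (0.0138%) lower after red oak smolder. Tbl1x was higher than after the other smokes by 0.93 ± 0.19 on the log2 scale, with an adjusted p of 0.0144 in edgeR. It was at 56.6 ± 17.5 CPM after red oak smolder (n = 6) and 29.8 ± 9.74 CPM after the other smokes (n = 54). Zranb2, a splicing protein, was lower than after the other smokes by 1.22 ± 0.18 (edgeR, adjusted p = 7.29e-06). It was at 62.9 ± 13.9 CPM after red oak smolder and 154 ± 69.2 CPM after the other smokes, with a saline mean of 102.7 CPM between them. Hmgn5, a nucleosome-binding protein, was lower as well, with a log2 change of -0.82 ± 0.17, at 45.2 ± 11.2 CPM after red oak smolder and 80.8 ± 24.3 CPM after the other smokes (adjusted p = 0.0144). Against saline these genes did not pass, at 0.95 ± 0.28 for Tbl1x, -0.71 ± 0.22 for Zranb2 and -0.67 ± 0.21 for Hmgn5. The exposed lungs held 38.9, 61.7, 61.6, 61.7, 76.3 and 77.3 CPM of Zranb2, and the saline lungs 63.5, 153, 92.2, 110.7, 122.7 and 74.04 CPM. The same comparison called 2 genes when fitted to the 24 h lungs alone and 23 without a filter on low counts.

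Between the burning phases of red oak 985 genes were called, 6.81% of those tested, with 9 higher (0.0622%) and 976 lower (6.75%) after smolder than after flame. Red oak flame replicate 6 had 9886 genes with a count, against 13948 to 15425 in the other 5 flame lungs. Without the 6 lung libraries of under 13000 detected genes, of which this is one, 0 genes were called. A covariate for detected genes also left 0, and 229 were called with the 24 h lungs alone. In the hearts 0% of 11179 genes were called between red oak smolder and saline, with 700 (6.26%) at an unadjusted p under 0.05 and 0 called by DESeq2.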

How the data were processed

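The table holds deposited counts per probe, whole numbers for 30146 probes of 21450 gene symbols in 170 libraries. The labels' protocols name both the TempO-Seq platform, which counts ligated probe pairs, and a 3′ mRNA kit. Bowtie and DESeq2 are named in the submitters' processing notes. Build and counting steps were not given in the sources used here. Probe rows were summed per symbol.

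CPM were computed with TMM factors. Differences were tested with edgeR 4.0.16 in R 4.3.3 (quasi-likelihood F test, trended dispersion, robust, filterByExpr) with terms for group and plate over the 140 lung libraries together, and for group over the 30 heart libraries. Benjamini-Hochberg adjustment covered all genes tested, and genes under 0.05 were called. Standard errors are the size of the log2 change over the root of F. DESeq2 1.42.0 was an alternative. Permutation tests used scipy 1.17.1 or full enumeration and were two-sided. With 6 against 6 the smallest p they allow is 0.00216, and with 5 against 5 it is 0.00794. The scripts were tested on simulated data.

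Groups came from the labels, and each lung carries its own animal number. No pair of libraries in either group had repeated data. Named genes are the 10 of smallest p in each direction with at least 5 CPM in a group, up to 4 of smallest p per list, and 9 markers. Any other gene was named after its values were seen. The members, the 41 lists and the rules were chosen with earlier results of these data known. Some results of the naming rule are not reported here.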

Additional observations from a re-analysis of the deposited data

Results flagged for a closer look

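A library was listed when its gap to the nearest of the other libraries of its group was large for the group's range (Dixon's 95% value). Of 220 sets of values tested 24 were listed, and chance lists about 1 in 20. In the red oak smolder group, replicate 5 had 14.6 CPM of Cyp1b1 with the next lung at 6.66 CPM, and 0 CPM of Il6 with the others from 0.919 CPM. It also had the fewest detected genes, 14827. Replicate 1 was listed 7 times. It had the highest values of its group for Lamp3, a lysosomal membrane protein of alveolar type 2 cells (392 CPM), the lysosomal enzyme Hexa (379 CPM), Idi1, an isomerase of cholesterol synthesis (179.6 CPM), and catalase, Cat (805 CPM). It was also the highest for Mup4, a major urinary protein made in liver (2.46 CPM), albumin, Alb (4.04 CPM), and the muscle myosin light chain Myl1, which was at 0.144 CPM with 0 counts in the other 5 lungs. Replicate 3 had 7.41 CPM of Clca1, a secreted protein of goblet cells, the highest of its group.

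In the saline group, replicate 2 had the fewest detected genes (13196), the fewest genes of at least 10 counts (10899), 840.5 CPM of Scgb3a1 and 9841 CPM of Col1a1. Replicate 5 had 18.2 CPM of Muc5ac and 13.6 CPM of Nppa, each the highest of its group. Replicate 6 had 63.1 CPM of Itgax and 0.301 CPM of Catsperd, which had 0 counts in the other 5 saline lungs. It also had 2.41 CPM of Myl2, the highest of its group. Replicate 1 had 2.21 CPM of Alb and 86.5 CPM of Clca1. In other groups, eucalyptus smolder replicate 3 at 24 h had 16.4 CPM of Marco and peat smolder replicate 4 at 4 h had 32.5 CPM.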

How the results depend on the processing

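Marco was higher after red oak smolder in all 22 alternatives and passed in 9 of them. Its log2 change and adjusted p were 4.19 and 0.0643 unfiltered, 4.21 and 0.304 with the 24 h lungs alone, 4.25 and 0.272 with the 12 libraries alone, 4.33 and 0.885 on plate 2 alone, and 4.17 and 0.0652 with each probe alone. With 1 library left out the change was 3.83 to 4.79 and 4 of 12 fits called it. The number of genes called against saline was 2 with DESeq2 (Marco and Pck1), 3 without the libraries of few detected genes and 3 with detected genes as a covariate (Marco, Pck1 and Hbs1l both times), and 0 without the filter, with the 24 h lungs, the 12 libraries or plate 2 alone and with each probe alone. Leaving out 1 library gave 0 to 3. Without red oak smolder replicate 6 the 3 were Marco, Snai1 and Nipal3.

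Against red oak flame 229 genes were called with the 24 h lungs alone, 0 without the libraries of few detected genes and 0 with the covariate. The difference between times had 2 calls with DESeq2. Against the other 9 smokes there were 3 calls with DESeq2, 23 without the filter, 2 with the 24 h lungs alone and 11 with the libraries of few detected genes removed. Counted at 10 or more counts, red oak smolder lungs had 517.5 more genes than saline lungs (exact permutation p = 0.00649), against 393.5 at 1 or more. Directions turned for genes near 0. Cyp1a1 was at 0.035 with DESeq2's size factors, 0.037 with DESeq2, and between -0.37 and 0.087 with 1 library left out, above 0 without red oak smolder replicate 5 (0.087) or saline replicate 3 (0.058). Hmox1 was at -0.56 with each probe alone and -0.028 with the covariate, and Il6 between -0.019 (without saline replicate 5) and 0.82 with 1 library left out. Lamp2, a lysosomal membrane protein, was at -0.64 with each probe alone. Car4 was at -0.0036 unfiltered, -0.017 with no plate term, -0.16 with each probe alone, -0.014 without the libraries of few detected genes, -0.14 with the covariate and between -0.20 and 0.25 with 1 library left out. On plate 2 alone Scgb1a1 was at -0.019 and Cyp2f2 at -0.080. Cyp2f2 was at -0.012 with the covariate and between -0.053 and 0.20 with 1 library left out. Of 1984 comparisons for 91 genes other than Marco, 1954 kept direction and side of the threshold, 7 newly passed and 23 turned. No paired analysis was possible because replicate numbers follow accession order and no animal is in both groups. The cause of these changes was not tested.

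Marco in saline rests on 23 counts, and the comparison is between 6 and 6 animals of 1 experiment. The edgeR p-values of the main fit draw on the spread within groups over all lung libraries, not on these animals alone. Fitted to the 12 compared libraries only, Marco had an adjusted p of 0.272 in edgeR.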

Other observations

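Some genes outside the naming rule separated the groups fully and are named after their values were seen. They are among the 18 genes (0.124%) above and 14 (0.0968%) below saline, numbers near what chance gives. Catsperd, a subunit of a sperm calcium channel, was at 0.722, 0.788, 1.89, 1.08, 1.92 and 0.850 CPM in the red oak smolder lungs, against 0, 0, 0, 0, 0 and 0.301 CPM in the saline lungs (log2 change 4.06 ± 0.96, edgeR adjusted p = 0.236), so its saline level rests on almost no counts. Sirpb1c, an activating receptor of myeloid cells, was at 32.6, 35.9, 20.2, 18.8, 18.3 and 28.3 CPM in the red oak smolder lungs, against 9.13, 2.25, 0.164, 7.66, 12.9 and 0.1505 CPM in the saline lungs (2.26 ± 0.81, adjusted p = 0.361), and its close relative Sirpb1b had 2.84 to 7.22 CPM, median 5.42, in the red oak smolder lungs against 0 to 1.94 CPM, median 0.736, in the saline lungs (2.62 ± 0.89). Counts of such similar genes may be split between them, so both are uncertain. Esm1, a proteoglycan secreted by activated endothelium, was at 27.01, 13.9, 34.9, 31.01, 31.2 and 37.1 CPM in the red oak smolder lungs, against 60.99, 101.6, 93.04, 92.7, 60.7 and 54.02 CPM in the saline lungs (-1.40 ± 0.40, adjusted p = 0.361). Hbs1l, a ribosome rescue factor, had 32.6 to 42.2 CPM, median 33.7, in the red oak smolder lungs against 55.2 to 134.6 CPM, median 70.4, in the saline lungs (-1.20 ± 0.42).

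The other genes called higher against the mean of the other 9 smokes were of liver type and low. Mup4 averaged 0.729 ± 0.892 CPM after red oak smolder and 0.209 ± 0.644 CPM after the others (log2 3.06 ± 0.57, adjusted p = 0.00373 in edgeR). Alb averaged 1.60 ± 1.27 CPM after red oak smolder and 0.450 ± 0.742 CPM after the others, and Kng1, the precursor of bradykinin, 0.872 ± 0.368 CPM after red oak smolder and 0.206 ± 0.332 CPM after the others. Their values against saline were 2.65 ± 1.03 for Mup4, 2.16 ± 0.79 for Alb and 3.39 ± 1.07 for Kng1, and none passed (adjusted p = 0.373, 0.361 and 0.361 in edgeR).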
